A study of Mus musculus with 2 samples.

Results

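The 10 miRNA genes described here, Mir770, Mir673, Mir337, Mir540, Mir665, Mir431, Mir433, Mir127, Mir434 and Mir136, form the proximal part of the imprinted Dlk1-Dio3 locus. They were chosen by symbol in GENCODE M21 and are 10 of the 2202 miRNA genes in the deposited files. All lie on the plus strand of chromosome 12 (mm10, chr12:109563692-109595388), within 31697 bases that start in Meg3 and end opposite Rtl1. Small RNA was sequenced from adrenal glands of B6CASTF1/J mice, an F1 hybrid strain, all males aged 14 days. The design is a single group of 2 libraries, named biological replicates 1 and 2, with no treatment, no mutant allele and no control group. The biosample of each library names 3 males and the donor record is shared, so whether animals were pooled is unknown here.

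At this locus the maternal chromosome makes Meg3, Rian, Mirg and the miRNAs, whereas the paternal chromosome makes the proteins Dlk1, Rtl1 and Dio3. A primary transcript is cut to a hairpin, and the hairpin to a short duplex, of which a strand is loaded into an Argonaute protein. The loaded miRNA finds its targets mainly through its seed, bases 2 to 8. Rtl1 is a gene derived from a retrotransposon that is needed in the placenta, and miRNAs made from the opposite strand are fully complementary to its mRNA and can direct its cleavage. Mir127 and Mir136 were the first miRNAs described there. In the adrenal gland, Dlk1 marks progenitor cells of the outer cortex and cells of the medulla.

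The mature sequences of the 5 members that lie opposite Rtl1 are shown because the same letters define their sites in the Rtl1 mRNA. They come from RefSeq (GRCm38.p6, the assembly of mm10), which held a hairpin for all 10 members, identical to that of GENCODE M21. Capitals mark the seed, and members stand in chromosome order.
miR-431-5p, chr12:109590459-109590479, plus strand: uGUCUUGCaggccgucaugca
miR-431-3p, chr12:109590502-109590523, plus strand: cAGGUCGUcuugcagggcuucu
miR-433-5p, chr12:109591729-109591750, plus strand: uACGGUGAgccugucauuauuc
miR-433-3p, chr12:109591781-109591802, plus strand: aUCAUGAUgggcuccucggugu
miR-127-5p, chr12:109592854-109592875, plus strand: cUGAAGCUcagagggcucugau
miR-127-3p, chr12:109592888-109592909, plus strand: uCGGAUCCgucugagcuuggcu
miR-434-5p, chr12:109594528-109594549, plus strand: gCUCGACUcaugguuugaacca
miR-434-3p, chr12:109594565-109594586, plus strand: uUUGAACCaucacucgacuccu
miR-136-5p, chr12:109595331-109595352, plus strand: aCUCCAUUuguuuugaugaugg
miR-136-3p, chr12:109595366-109595387, plus strand: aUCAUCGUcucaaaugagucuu

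All 5 of these hairpins lie opposite the coding exon of Rtl1. The reverse complement of each of their 10 mature sequences stands without mismatch in the only Rtl1 transcript of GENCODE M21 (ENSMUST00000149046.3, 6358 bases). In every case it lies inside the coding sequence, and none of the other 5 members had such a match. The matches follow from the overlap, since miRNA and mRNA are read from opposite strands of the same reference bases. Whether they hold between the parental alleles of these F1 hybrid mice was not tested. The sites run against the order of the genes, from codons 6 to 13 for miR-136-3p to codons 1642 to 1649 for miR-431-5p. The sites of the 3p arms of Mir127 and Mir433, the hairpins of highest mean level, are shown as they stand in the mRNA, with the letters opposite the seed in capitals. Counts are per hairpin, so the level of either arm is not known. The files hold no mRNA values, so the level of Rtl1 was not measured.
Rtl1 codons 832 to 839, site of miR-127-3p: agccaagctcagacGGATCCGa
Rtl1 codons 1201 to 1208, site of miR-433-3p: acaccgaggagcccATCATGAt

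The other 5 members come before Rtl1, in Meg3 or between it and Rtl1. Mir770 lies in Meg3, in an exon of 1 of the 4 Meg3 transcripts that span it and in an intron of the others. Mir673, Mir337, Mir540 and Mir665 overlap none of Meg3, Rtl1 or the annotated gene Gm26906. The arms of Mir337, the most abundant of these, and of Mir770, the member that differed most between the libraries, are shown with their seeds in capitals.
miR-770-5p, chr12:109563710-109563731, plus strand: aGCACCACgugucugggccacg
miR-770-3p, chr12:109563744-109563765, plus strand: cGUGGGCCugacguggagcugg
miR-337-5p, chr12:109585818-109585839, plus strand: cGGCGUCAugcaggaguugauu
miR-337-3p, chr12:109585850-109585871, plus strand: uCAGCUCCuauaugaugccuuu

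The 20 mature sequences of the members carried 20 different seeds, so no seed family links these neighbours. Only 2 of the 20 seeds (10%) occur in a mature miRNA of another mouse gene, against 556 of all 1738 mature sequences in the RefSeq table (32.0%). Those are the seed of miR-673-5p, shared with Mir6985, and that of miR-540-3p, shared with Mir6915, and each of these other genes had 1 count in the 2 libraries together. No member's hairpin shares a stretch of 20 bases with another annotated miRNA gene. The hairpin of Mir434 repeats a stretch of its own, UGGUUUGAACCAU, which is the longest such repeat in the group at 13 bases. It is shown with the mature arms in capitals (mm10, chr12:109594506-109594599, plus strand).
Mir434 hairpin: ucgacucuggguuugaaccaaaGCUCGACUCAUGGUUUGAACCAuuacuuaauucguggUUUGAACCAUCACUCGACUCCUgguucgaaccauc

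Hairpins of the members were 62 to 124 bases long, with a median of 92.5 against 84 over the 364 detected miRNA genes, those that reached 2 CPM in each library. CPM is the sense count of a gene per 1000000 sense counts over all miRNA genes of the library. The median GC content was 56.8% in the members and 50.2% in the detected genes, and ranged from 40.3% in Mir136 to 70.2% in Mir770. The predicted folding energy per base had a median of -0.47 kcal/mol in the members and -0.43 in the detected genes. Mir770 was the most stable at -0.62 per base and Mir433 the least at -0.36. These are descriptions of the annotated hairpins and were not tested.

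Replicate 1 held 3024662 sense counts over miRNA genes and replicate 2 held 3464837, so 1 count was 0.331 and 0.289 CPM. The libraries were not 1 library deposited under both numbers, since their counts differed by far more than sampling noise (chi-square per degree of freedom 796). They also differed in markers of other tissues and cells. Mir122 of hepatocytes was at 3786 CPM in replicate 1 and 49474 in replicate 2, and the 3 red blood cell miRNAs summed to 43959 and 19202 CPM. That difference lay mainly in Mir451a (41828 and 17126 CPM), and Mir486 was also lower in replicate 2 (37.0 and 23.7 CPM). Mir144, of the same locus as Mir451a, was at 2093 and 2053 CPM. It did not pass the test between the libraries described further on. Mir375, Mir7-1 and Mir7b, of neuroendocrine cells such as those of the medulla, summed to 31053 and 34207 CPM. That was mainly Mir375 (26615 and 29592 CPM). Mir7b was also higher in replicate 2 (4120 and 4312 CPM), while Mir7-1 (318 and 304 CPM) did not pass the test. No count was found for 3 of 6 neuronal (Mir9-2, Mir124a-2, Mir124a-3) and 3 of 5 striated muscle miRNAs (Mir1a-1, Mir133a-1, Mir133a-2). Mir124a-1 had 2 and 0 counts, and Mir9-1, Mir9-3 and Mir1a-2 had 1 and 0 each. Mir206 of the muscle list had 18 and 33 counts (5.95 and 9.52 CPM) and has no 20 bases in a row in common with another miRNA gene. Each of those at 0 has 20 bases in a row in common with 1 or 2 further miRNA genes, and reads with several matches were counted for no gene, so the zeros do not show that these miRNAs were absent. Endothelial Mir126a was at 155646 and 94732 CPM. White blood cell miRNAs summed to 3466 and 1710 CPM, with 3 of 4 lower in replicate 2 and Mir223 higher (31.1 and 89.5 CPM). The list for kidney and epithelial cells summed to 153 and 459 CPM, with 3 of 4 higher in replicate 2 and Mir200c lower (69.1 and 36.1 CPM). Those higher were Mir192 (32.1 and 231 CPM), Mir194-2 (36.7 and 107) and Mir200b (14.9 and 85.1). Which tissue these came from was not tested. No miRNA defines the steroid-making cortex. In a whole gland, fewer cells of a type and less RNA per cell cannot be told apart, and the part of these differences in the members' values was not tested.

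All 10 members were detected, with at least 210 counts in each library, and they spanned a 206-fold range of mean level. Together they held 2.25% of sense miRNA counts in replicate 1 (exact Clopper-Pearson 95% interval 2.24 to 2.27) and 2.09% in replicate 2 (2.07 to 2.10), or 2.17% ± 0.117 (SD, n = 2). These intervals, like all those given here, cover counting error only. With these totals the summed level was thus 1.08-fold lower in replicate 2. Leaving Mir122 out of the totals raised every log2 ratio of replicate 2 to replicate 1 by 0.0677. The ratio of Mir127, for instance, went from 0.878 to 0.920. The median member stood at 404 CPM, against 124 CPM over the detected genes.

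The members opposite Rtl1 held most of the group. Their 5 genes summed to 20116 CPM in replicate 1 and 18927 in replicate 2, which was 89.2% and 90.6% of the members' counts. Mir127 was at 15477 CPM in replicate 1 and 13585 in replicate 2 (mean 14531 ± 1338, SD, n = 2), and ranked 18th and 19th among the 2202 genes. This was 6.31 times the mean of Mir433, the next member. By itself Mir127 made up 68.6% of the members' counts in replicate 1 (interval 68.3 to 69.0) and 65.0% in replicate 2 (64.7 to 65.4).

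Mir433, which lies 1007 bases before Mir127, was at 2459 and 2149 CPM in replicates 1 and 2 (2304 ± 219). Mir431, the first member opposite Rtl1, was at 1633 and 2436 CPM (2034 ± 568). The order of Mir433 and Mir431 was therefore exchanged between the libraries. Mir434 was at 441 and 609 CPM (525 ± 119). Mir136, the last member of the span, was at 106 and 147 CPM (127 ± 29.5).

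**Figure D1:**
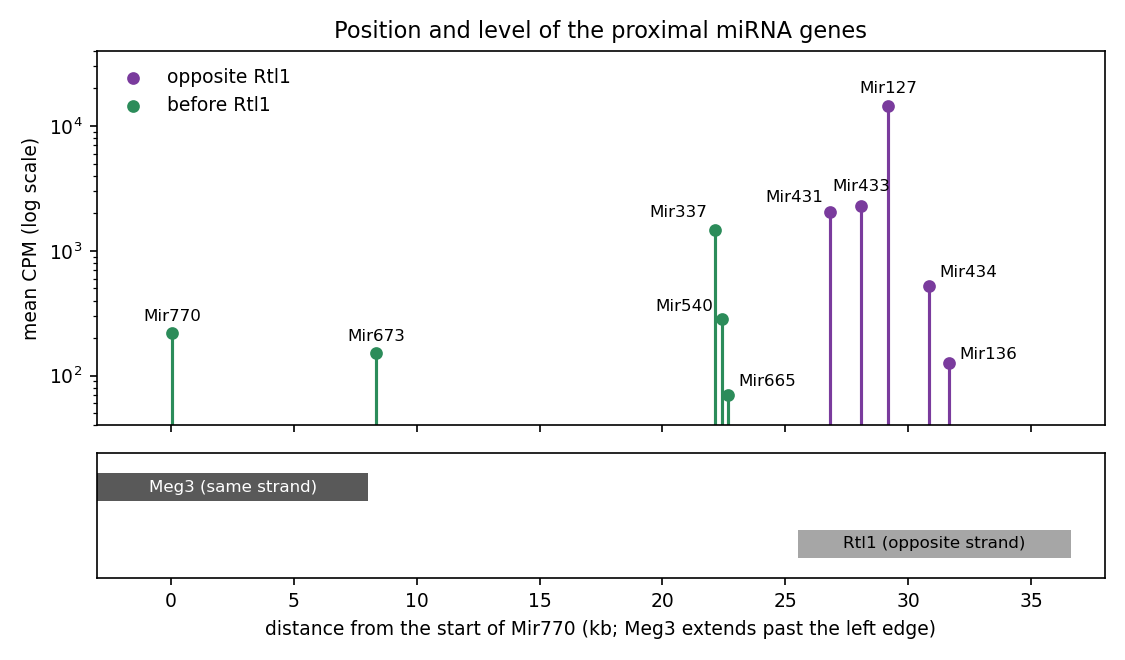
Mean CPM of the 2 libraries (log scale) against the distance of each hairpin from the start of Mir770 in kilobases, with the extents of Meg3 and Rtl1 below. Points carry the values and the lines under them only lead to the position. Mir127 at 14531 CPM stands above its neighbours opposite Rtl1, and Mir337 at 1471 CPM above the other members before Rtl1.

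Before Rtl1, the level was carried by Mir337 at 1642 CPM in replicate 1 and 1301 in replicate 2 (1471 ± 241). Mir540 and Mir665 follow it after gaps of 194 and 167 bases and were far lower. Mir540 was at 260 and 307 CPM (283 ± 33.8), and Mir665 at 69.4 and 71.9 CPM (70.6 ± 1.72), the lowest level of the group and its smallest SD. Mir770 in Meg3 was at 295 and 141 CPM (218 ± 109). Mir673, just past the end of Meg3, was at 164 and 139 CPM (152 ± 18.0). The 5 genes summed to 2430 and 1960 CPM.

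Of the 9 neighbouring pairs in the order of levels, 4 did not overlap in their ranges over the libraries. These were Mir127 over Mir433, Mir337 over Mir434, Mir434 over Mir540 and Mir136 over Mir665. The other 5 pairs overlapped: Mir433 with Mir431, Mir431 with Mir337, Mir540 with Mir770, Mir770 with Mir673, and Mir673 with Mir136. Members further apart in the order could still be separate, as Mir433 (2459 and 2149 CPM) was from Mir337 (1642 and 1301 CPM). Levels were not tested, because the smallest two-sided p that exact sign flips of 2 libraries allow is 0.5.

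**Figure D2:**
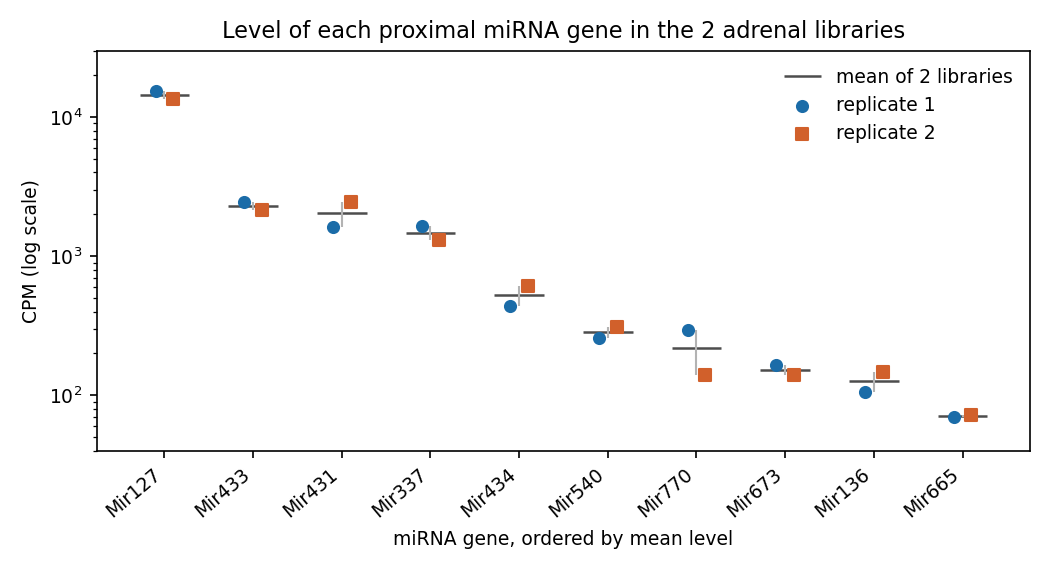
CPM of each member on a log scale, with a point for replicate 1, a square for replicate 2, a bar for their mean and a line that joins the libraries. Mir127 stands apart at 15477 and 13585 CPM, and Mir770 shows the widest gap, 295 against 141 CPM.

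The only other question the design allows is how far the libraries differed. In each gene with 10 or more counts, replicates were compared by an exact two-sided binomial test given the library totals, with Benjamini-Hochberg adjustment over all 413 genes tested. That test compares those libraries, not conditions. At an adjusted p under 0.05, 9 of 10 members differed, against 229 of 413 genes (55.4%). The members have higher counts than most genes, and the test's power rises with counts. Mir431, Mir434, Mir136 and Mir540 were higher in replicate 2, as were 28.8% of all genes tested, and Mir770, Mir673, Mir337, Mir433 and Mir127 were lower, as were 26.6%. Whether these genes would separate other animals was not tested.

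In size the differences were like those of other genes. At 100 CPM or more, 1 of 9 members differed by 2-fold or more, against 28 of 189 genes (14.8%). The median absolute log2 ratio was 0.34 in those 9 members and 0.33 in the 189 genes. The exception was Mir770, with 893 counts in replicate 1 and 488 in replicate 2, a level 2.10-fold lower in replicate 2 (exact interval 1.88 to 2.35). It was still 2.00-fold lower when Mir122 was left out of the library totals.

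Some members that lie next to each other differed between the libraries in opposite directions. Mir431 was 1.49-fold higher in replicate 2 (interval 1.44 to 1.55), the largest such difference of the group. Mir433, 1177 bases further on, was 1.14-fold lower (1.11 to 1.18), and Mir127 was also 1.14-fold lower (1.12 to 1.15). Further along the same Rtl1 exon, Mir434 was 1.38-fold higher (1.29 to 1.48). Mir136 was also higher, by 1.39-fold (1.21 to 1.61). In the cluster before Rtl1, Mir337 was 1.26-fold lower (1.21 to 1.31) and Mir540 1.18-fold higher (1.08 to 1.30). Mir673 was 1.18-fold lower (1.04 to 1.34), which no longer passed the test without Mir122 in the totals, where its ratio was 0.885. For Mir665 the ratio was 1.04 (0.858 to 1.2497), which did not pass the exact binomial test (adjusted p = 0.839). Its ratio was 0.942 with unstranded counts, where its own counts were the same and only the library totals differed.

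**Figure D3:**
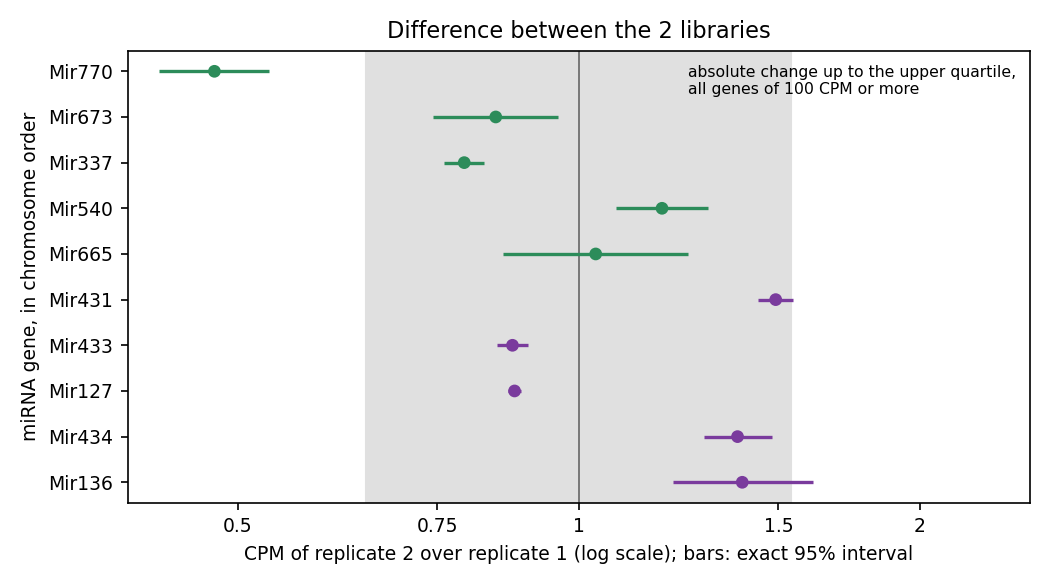
CPM of replicate 2 over replicate 1 for each member in chromosome order (log scale), with exact 95% intervals that cover counting error, purple for members opposite Rtl1 and green for those before it. The grey band spans absolute changes up to the upper quartile of the 189 genes at 100 CPM or more. Mir770 lies outside it at 0.477, and Mir431, Mir434 and Mir136 lie near its right edge while Mir433 and Mir127 lie left of 1.

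A ratio of neighbours within a library does not depend on the library total. It was computed for the 9 neighbouring pairs on the chromosome after the members' values had been seen, so it is a description, and its intervals are not adjusted for 9 pairs. Mir433 stood in nearly the same proportion to Mir127 in both libraries, with 0.159 and 0.158 counts per count of Mir127 in replicates 1 and 2, a change of 0.996-fold (interval 0.962 to 1.03). Mir434 likewise had 4.17 and 4.13 counts per count of Mir136, a change of 0.991-fold (0.845 to 1.16). By contrast Mir431 had 0.664 counts per count of Mir433 in replicate 1 and 1.13 in replicate 2, a change of 1.71-fold (1.63 to 1.79). Mir127 had 35.1 and 22.3 counts per count of Mir434, a change of 0.636-fold (0.592 to 0.682). In all, the interval excluded 1 in 5 of the 9 pairs.

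**Figure D4:**
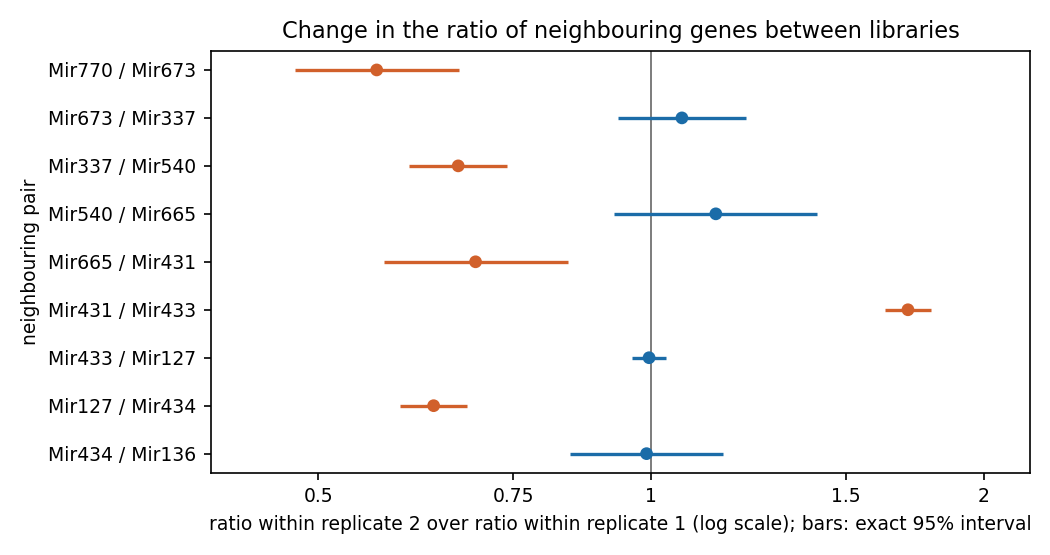
Ratio of the counts of neighbouring members within replicate 2 over that within replicate 1 (log scale), with exact 95% intervals that cover counting error. Blue pairs, such as Mir433 over Mir127 at 0.996, have an interval that includes 1, and orange pairs, such as Mir431 over Mir433 at 1.71, have one that does not.

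Mir337 and Mir136 each lie opposite another annotated miRNA gene, so their values depend on the strand of the counts. Mir3544 (chr12:109585813-109585873, minus strand) lies opposite Mir337 and had 36 sense counts in replicate 1 and 58 in replicate 2, against 4965 and 4507 for Mir337. Mir3071 (chr12:109595318-109595397, minus strand) lies opposite Mir136 and had 3 and 4 sense counts, against 320 and 511 for Mir136. In the unstranded column, where 12.6% and 9.37% of all reads were ambiguous, Mir337 had 9 and 4 counts and Mir136 had 0 in both libraries. The mature arms of Mir3544 are shown because its 3p arm overlaps miR-337-5p on the opposite strand and its 5p arm overlaps miR-337-3p.
miR-3544-3p, chr12:109585813-109585834, minus strand: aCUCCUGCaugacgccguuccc
miR-3544-5p, chr12:109585851-109585873, minus strand: aGAAAGGCaucauauaggagcug

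The span holds 4 further annotated miRNA genes. Mir493, between Mir673 and Mir337, had 108 and 137 counts in replicates 1 and 2 (37.6 ± 2.71 CPM) and did not pass the test between the libraries. Mir3070a had 10 and 13 counts and Mir3070b had 8 and 13, and each shares a 20-base stretch with 1 other miRNA gene. Reads with several matches were counted for no gene, so these counts may be too low. Mir432, between Mir434 and Mir136, had no count, which at 3 counts allows up to 0.992 CPM in replicate 1 and 0.866 in replicate 2.

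The distal miRNA genes of the same locus, 38 genes on the same strand from Mir379 to Mir410, begin 113671 bases past Mir136. They held 3.75% and 3.79% of sense counts in replicates 1 and 2 (3.77% ± 0.0261), so the 10 proximal members made up 37.5% and 35.5% of the counts of both parts. Mir411 led the distal genes with 11073 ± 904 CPM. Mir379 followed with 9542 ± 16.1 CPM and Mir541 with 4478 ± 468. Mir411 held 31.2% and 27.5% of the distal counts in replicates 1 and 2, where Mir127 held 68.6% and 65.0% of the proximal. Of 34 distal genes tested, 19 were higher and 4 lower in replicate 2, against 28.8% higher and 26.6% lower over all 413 genes. The summed ratio of replicate 2 to replicate 1 was 0.926 (0.917 to 0.936) over the proximal members and 1.01 (1.00 to 1.02) over the distal genes. Without Mir127 the other 9 proximal members had a summed ratio of 1.03 (1.01 to 1.05). Among them Mir431 had a ratio of 1.49, while the 5 members before Rtl1 summed to a ratio of 0.806 (0.780 to 0.834). The direction of the proximal sum thus depends on which members are in it.

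Among all other miRNA genes, those nearest to Mir127 over the 2 libraries were Mir335, Mir99a and Mir10b, at distances of 0.293, 0.437 and 0.471 in log2(CPM + 1). Mir335, from an intron of the imprinted gene Mest, was at 18826 and 14344 CPM in replicates 1 and 2. Mir99a was at 17058 and 18102 CPM, and Mir10b, from the HoxD cluster, at 17870 and 10131. This likeness is one of level and rests on 2 libraries.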

How the data were processed

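Small RNA libraries (size range below 30 per the labels, without a unit) were analysed from the deposited counts, which are raw read counts per miRNA gene, 1 file per library. Per the deposited notes on the files, the assembly was mm10 and the annotation GENCODE M21. No source names the aligner or counter. Each file has 4 summary rows and 3 unlabelled count columns, read here from their values as unstranded, sense and opposite strand. The sense column was used, and the 57.8% and 59.1% of reads in the summary rows, which name no gene, stayed out of totals. Counts are per hairpin, without separation of the arms or of the parental alleles.

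The members, lists and rules were chosen with earlier results of these data known. Named genes were the 10 members, other miRNA genes in the span, the 3 genes nearest to Mir127, the 3 leading distal genes and markers of other cell types. Alternatives were unstranded counts, other library totals, TMM (edgeR) and the size factors of DESeq2, other count minimums, levels and folds, and each library alone. Replicates 1 and 2 are called biological in the labels, which do not say whether each is 1 animal or a pool. Between them, genes with 10 or more counts in both libraries together were compared by exact two-sided binomial tests with Benjamini-Hochberg adjustment at 0.05.

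The binomial test was tested on simulated libraries of 417 genes, in which counts varied by Poisson counting noise only. It recovered 65.3% of the genes with a 1.5-fold change. For 2-fold changes the share was 77.6%. Of unchanged genes it called 2.25%. The deposited libraries differed by far more than counting noise, so these shares do not describe calls between biological replicates. Folding used RNAfold 2.7.2. Other software was Python 3.11.15, SciPy 1.17.1, pandas 2.3.3, R 4.3.3, edgeR 4.0.16 and DESeq2 1.42.0.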

Additional observations from a re-analysis of the deposited data

Results flagged for a closer look

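Reads on the strand opposite to a member enter no comparison of the report. At Mir337 they were 45 in replicate 1 and 62 in replicate 2, above the 3 counts that a count of 0 allows, and the annotated Mir3544 on that strand had 36 and 58. At Mir136 they were 3 in replicate 1 and 4 in replicate 2, where Mir3071 is annotated. The other 8 members had 0 such counts in each library except for 1 count at Mir127 in replicate 2. There were no control samples to set these against, and a group of 2 is too small to look for an outlying sample.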

How the results depend on the processing

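The members' summed share was 2.74% with unstranded counts and 2.59% with totals over genes that share no 20-base stretch, against 2.17%. Leaving out either library kept it between 2.09% and 2.25%. With unstranded counts Mir127 made up 72.1% of the members. Of 9 members tested, since Mir136 had no count, 2 were higher and 4 lower in replicate 2. Over all genes 74 were higher and 139 lower, against 119 and 110 with sense counts. The change of totals alone shifts a log2 ratio by -0.14. Mir665 had the same 210 and 249 counts in both columns, so its reversal to a ratio of 0.942 is that shift only. Genes whose counts differ between the columns shift by other amounts. Mir337 had a ratio of 0.353, from 9 and 4 counts. Its sense counts, 4965 and 4507, equalled the opposite-strand counts of Mir3544, so the ratio of 0.353 does not describe its level. Ambiguous reads were 12.6% and 9.37% of the files in the unstranded column. Its totals were 2122450 and 2670655 counts, against 3024662 and 3464837 in the sense column. With unstranded counts Mir540 no longer passed the test, and neither did Mir337 with its 9 and 4 counts. Without Mir122 in the totals Mir673 did not, which left 4 members lower, with 139 genes higher and 95 lower over all. The counts of 4 higher and 5 lower members were the same with TMM, DESeq2's size factors, totals without shared stretches and count minimums of 1 and 50. At 1000 CPM or more, 0 members differed 2-fold. No paired analysis was possible because the design has 1 group. Depth limits mainly Mir665 and Mir136, with the fewest counts.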
